A study of Mus musculus with 16 samples.

Results

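The genes described here encode the nuclear-encoded subunits, assembly factors and electron carrier of mitochondrial oxidative phosphorylation. They were taken by symbol from the platform annotation (the Nduf, Sdh, Uqcr, Cox4 to Cox8 and Atp5 families, Cycs and Cyc1), with 1 probe set per gene, the one with the highest mean over all 16 arrays. The rule found 92 of 18193 genes, and 81 of the 92 passed the filter on low values (log2 of at least 5 on at least 2 arrays), which kept 7823 genes in all. The other 11 are given by their level only.

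Oxidative phosphorylation takes place in the inner mitochondrial membrane. Complex I takes electrons from NADH and complex II takes them from succinate, complex III passes them through cytochrome c to complex IV, which reduces oxygen, and the proton gradient built on the way drives the ATP synthase. Most subunits are encoded in the nucleus, and a few core membrane subunits of complexes I, III and IV and of the ATP synthase are encoded in mitochondrial DNA. Hepatic stellate cells, the retinoid-storing pericytes of the liver, turn into contractile, matrix-producing myofibroblasts after injury, a change that is known to come with altered energy metabolism.

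All cells were isolated from livers of male Balb/c mice, 8 to 10 weeks old, by density centrifugation, and were depleted of cells that carry the macrophage surface protein F4/80. Cocultured cells (2 arrays, replicates 2 and 3) and cultured cells (3 arrays) were activated for 5 days on plastic with 10% serum, and the cocultured cells shared their medium with hepatic macrophages across a transwell membrane. Bile duct ligation cells (3 arrays) came from mice ligated for 15 days and CCl4 cells (3 arrays) from mice given 4 intraperitoneal injections of carbon tetrachloride at 0.5 µl per g, and quiescent cells (5 arrays) came from untreated mice. The cells of these last 3 groups were plated for 24 h before lysis. A further coculture sample named in the design was not analysed here.

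Values are log2 expression values from GCRMA, and differences are log2 differences between group means with standard errors. A gene was called at a Benjamini-Hochberg adjusted p under 0.05 over the 7823 genes in limma. Whether each array had its own animals is not stated, so the p-values describe only how far these arrays scatter, and that scatter may be technical. In such bulk samples fewer cells of a type and less RNA per cell cannot be told apart. Pearson correlations between arrays over the tested genes were 0.929 to 0.983 within groups and 0.773 to 0.969 between groups. Of 10 stellate markers 9 averaged log2 5 or more in coculture, culture and quiescent cells, and 8 did in each injury group. Gfap stayed at background in every group. Lrat, the retinol-esterifying enzyme gene, averaged 7.98 in coculture, 9.75 in culture, 4.78 after bile duct ligation, 3.81 after CCl4 and 5.61 in quiescent cells, and Reln averaged 8.78, 11.24, 10.90, 10.63 and 12.03 in the same order. No gene encoded in mitochondrial DNA was named by the annotation used here, so 0 such genes were measured.

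After culture on plastic, oxidative phosphorylation genes were called in both directions, at shares near those of all genes. Against quiescent cells 33 of 81 were called in cultured cells (40.7%), 12 higher and 21 lower, beside 42.1% of all genes tested, of which 18.5% were higher and 23.5% lower. The arrays of both groups did not overlap for 34 of 81, beside 39.1% of all genes. The median difference was -0.08 for these genes and -0.05 for all genes. The sizes were small, with a median absolute difference of 0.24 beside 0.44 over all genes and a median standard error of 0.117 beside 0.206. These genes have high signals, with a median level of 9.82 beside 7.23 over all genes tested. Among the 2772 genes averaging log2 8 or more, the median absolute difference was 0.37 and 46% were called. Only 1 of 81 was called at 2-fold or more (1.23%, against 16.9% of all genes). Macrophage markers also moved in this comparison. Their summed level was 6.30 to 6.53 in culture and 6.75 to 8.04 in quiescent cells, where Cd68 averaged 3.74 in culture and 7.02 in quiescent cells (called lower) and Lyz2 averaged 4.94 in culture and 2.02 in quiescent cells (called higher). Their part in the result was not tested.

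The genes called lower in culture included most of the catalytic head and the rotor ring of the ATP synthase. Atp5g1, 1 of 3 genes for the subunit c that forms the proton-driven ring, had log2 values of 9.05, 9.12 and 8.87 in cultured cells, against 9.70, 9.65, 10.07, 9.74 and 9.89 in quiescent cells. Every cultured array lay below every quiescent array, a difference of -0.80 ± 0.12 (limma, adjusted p = 0.000129). Atp5g2, which encodes the same mature protein, fell by 0.56 ± 0.10 (adjusted p = 0.000484), whereas Atp5g3, the third gene, differed by -0.11 ± 0.07 and was not called (adjusted p = 0.254).

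Atp5a1 encodes the alpha subunit of the F1 head. It stood at 10.08, 10.20 and 10.25 in cultured cells, against 10.79, 10.81, 10.79, 10.97 and 10.87 in quiescent cells, with no overlap between the groups. The difference was -0.67 ± 0.09 (limma, adjusted p = 6.38e-05), and it was not called when all probe sets of the gene were averaged. The catalytic beta subunit gene Atp5b (-0.37 ± 0.11), the gamma gene Atp5c1 (-0.35 ± 0.11) and the delta gene Atp5d (-0.31 ± 0.11) were lower too, so that 4 of 5 F1 genes and 2 of 3 c-ring genes fell. Of the peripheral stalk genes 0 of 4 were called, and of the small membrane subunits 1 of 5, Atp5j2, was higher (0.51 ± 0.14). Of all genes 23.5% were lower and 18.5% higher, and these small groups of genes were not tested as sets.

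In the respiratory chain the genes called lower in culture included electron-transferring, structural and accessory subunits. Cyc1, the haem-carrying cytochrome c1 of complex III, had 9.75, 9.75 and 9.88 in cultured cells, against 10.41, 10.27, 10.46, 10.39 and 10.32 in quiescent cells. The groups did not overlap and the difference was -0.58 ± 0.09 (limma, adjusted p = 0.000164). Ndufv1, the NADH-binding flavoprotein of complex I, stood at 9.35, 9.33 and 9.45 in cultured cells, against 9.64, 9.97, 10.19, 10.04 and 10.22 in quiescent cells (-0.64 ± 0.12, adjusted p = 0.000862). Ndufs8 and Ndufv2, iron-sulfur subunits of complex I, fell by 0.61 ± 0.12 and 0.31 ± 0.11. This made 3 of 6 catalytic core genes of complex I lower, beside 23.5% of all genes. The complex III core protein gene Uqcrc1 fell by 0.58 ± 0.16.

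Of the accessory subunits of complex I, with Ndufa4 counted among them by its symbol, 6 of 27 were higher and 5 of 27 lower. These shares were near those of all genes (18.5% and 23.5%). Ndufv3, an accessory subunit of the NADH-oxidising arm, stood at 9.64, 9.67 and 9.52 in cultured cells, against 9.01, 8.82, 8.70, 8.56 and 9.03 in quiescent cells. All cultured arrays were above all quiescent arrays (0.79 ± 0.14, limma, adjusted p = 0.00043). Ndufa13, also known as a cell death regulator, was higher by 0.61 ± 0.14, and Ndufa4, first assigned to complex I and now counted as a complex IV subunit, by 0.50 ± 0.14. Lower accessory genes included Ndufb10 (-0.55 ± 0.10), Ndufa10 (-0.58 ± 0.12) and the acyl carrier protein gene Ndufab1 (-0.47 ± 0.10).

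The assembly factors of complex I showed the largest differences. Ndufaf6 had 3.74, 4.07 and 4.32 in cultured cells, against 6.01, 4.98, 5.61, 5.67 and 5.33 in quiescent cells, a difference of -1.48 ± 0.24 (limma, adjusted p = 0.000225). The cultured values lay below the filter level, where GCRMA values depend on the background estimate. Ndufaf4 stood at 7.94, 8.00 and 8.02 in cultured cells, against 9.37, 9.05, 9.03, 8.70 and 8.69 in quiescent cells (-0.98 ± 0.16, adjusted p = 0.000187). In the other direction, Ndufaf1 was 6.82, 7.25 and 7.40 in cultured cells, against 6.13, 6.24, 6.64, 6.05 and 6.70 in quiescent cells (0.81 ± 0.18, adjusted p = 0.00275). The groups did not overlap for any of the 3 genes. In all, 4 of 8 complex I assembly factors were lower and 1 was higher, beside 23.5% and 18.5% of all genes.

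Grouped by role, a class of catalytic, c-ring and electron-carrying genes, with all F1 and complex II genes, counted 10 of 21 lower in culture. In that class 0 of 21 were higher, and the median was -0.26. The accessory and structural genes counted 7 of 51 lower and 11 of 51 higher, with a median of -0.04, and the shares of all genes were 23.5% lower and 18.5% higher. The first class is broader than catalytic genes. It took in all 5 F1 genes, with the gamma, delta and epsilon subunits, and all 4 complex II genes, with the anchors Sdhc and Sdhd. This grouping was made after the values had been seen, and it was not tested.

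**Figure D1:**
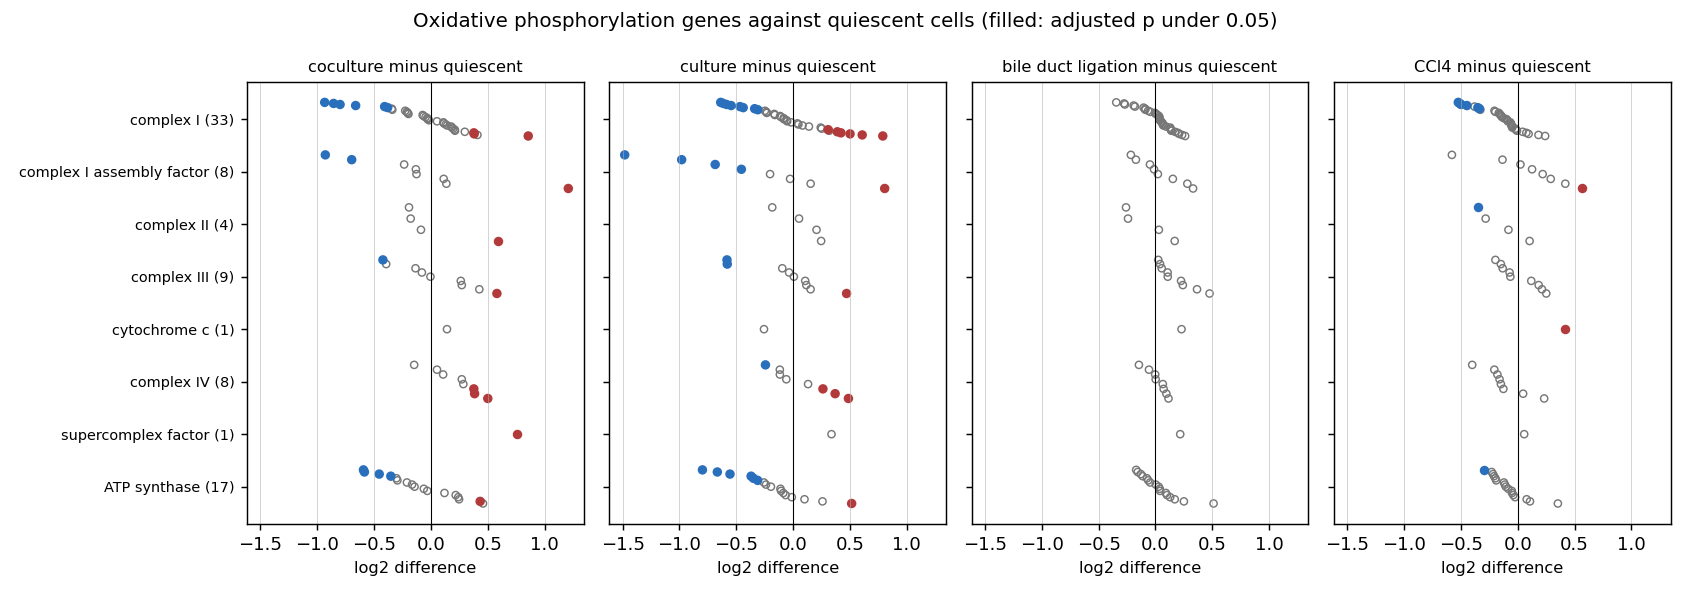
Log2 difference from quiescent cells (x axis) for each of the 81 tested genes, by complex (y axis, number of genes in brackets), in coculture, culture, bile duct ligation and CCl4. Ndufa4 is placed under complex I by its symbol. Filled points passed adjusted p under 0.05 (red higher, blue lower), and open points did not. Culture and coculture show called genes on both sides of 0, CCl4 shows 10 and bile duct ligation shows 0.

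Promoter sequence was available for 75 of the 92 genes in RefSeq windows (GRCm38.p6) that run from 250 bases before to 50 after each gene's start, and was searched on both strands. The letters GCGCANGCG, a core of the site of NRF1, a transcription factor known for its many targets among respiratory chain genes, stood in 28% of these genes (21 of 75) and in 7.03% of 27025 genes with a window. Matches on the 2 strands can overlap because the motif is nearly palindromic. Among genes with a window it stood in 7 of 17 lower in culture (41.2%), in 1 of 12 higher (8.33%) and in 12 of 39 not called (30.8%). The hypoxia core GACGTG stood in 12.0% against 7.15% of all genes, AAGATGGCG (YY1) in 9.33% against 1.64%, CCGGAAGT (GABPA) in 6.67% against 4.31%, and TNAAGGTCA (ERRA) in 4.0% against 1.43%. A match describes the sequence and is not evidence of binding. The stretches shown hold such matches in capitals, in 2 genes lower in culture, the 1 higher gene with a match, and the cytochrome c gene Cycs, read 5′ to 3′ on the gene's strand.
Ndufaf4, chr4:24897935-24898014, plus strand: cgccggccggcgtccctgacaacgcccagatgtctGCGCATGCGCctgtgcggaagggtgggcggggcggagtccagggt
Atp5g2, chr15:102671045-102671124, minus strand: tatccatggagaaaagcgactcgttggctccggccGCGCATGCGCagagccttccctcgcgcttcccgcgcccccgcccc
Cox6a1, chr5:115349076-115349155, minus strand: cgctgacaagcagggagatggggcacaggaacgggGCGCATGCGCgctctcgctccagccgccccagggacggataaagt
Cycs, chr6:50566586-50566665, minus strand: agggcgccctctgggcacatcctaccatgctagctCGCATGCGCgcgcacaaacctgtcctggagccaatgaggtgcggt

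In coculture with macrophages 24 of 81 genes were called against quiescent cells (29.6%), 11 higher and 13 lower, beside 38.7% of all genes tested (17.8% higher, 20.9% lower). Arrays did not overlap for 34 of 81 genes, beside 46.4% of all genes. The median difference was -0.03, beside -0.04 over all genes, and 1 of 81 was called at 2-fold or more, against 18.8% of all genes. The count was 14 without coculture replicate 2 and 15 without coculture replicate 3, each leaving 1 array whose spread is taken from the other groups. This comparison shares its 5 quiescent arrays with the one for culture, so the values are given side by side and their agreement is not a result. Of the genes called, 12 were lower in both, 7 were higher in both, 5 were called in coculture alone, 14 in culture alone, and 0 went opposite ways.

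The 5 largest called decreases without overlap between arrays were all in complex I subunits or assembly factors. By share complex I did not stand out, with 6 of 33 subunits lower (18.2%), beside 20.9% of all genes. Of its assembly factors 2 of 8 were lower (25%), and of the ATP synthase genes 4 of 17 (23.5%). Ndufs8 stood at 9.97 and 9.84 in cocultured cells, against 10.66, 10.62, 10.96, 10.99 and 10.98 in quiescent cells, with no overlap (-0.93 ± 0.14, limma, adjusted p = 0.000131). Ndufb10, an accessory subunit of the membrane arm, stood at 9.07 and 9.17 in cocultured cells, against 9.90, 9.73, 10.00, 9.84 and 10.12 in quiescent cells (-0.80 ± 0.11, adjusted p = 9.47e-05). Both lay in every cocultured array below every quiescent array. Ndufv1 fell by 0.86 ± 0.14, Ndufaf4 by 0.93 ± 0.18 and Ndufaf8, another assembly factor, by 0.70 ± 0.13. Atp5a1 (-0.58 ± 0.11), Atp5g1 (-0.59 ± 0.14), Atp5g2 (-0.45 ± 0.11) and Cyc1 (-0.42 ± 0.10) were lower, of which Atp5g1 was not called without coculture replicate 3, and Atp5g2 and Cyc1 were not called without coculture replicate 2.

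Ndufaf1 was the largest increase in coculture, with 7.67 and 7.45 in cocultured cells, against 6.13, 6.24, 6.64, 6.05 and 6.70 in quiescent cells. Both cocultured arrays lay above all quiescent arrays (1.21 ± 0.21, limma, adjusted p = 0.000474). Cox7a2l, which joins complexes III and IV into supercomplexes, stood at 9.25 and 9.49 in cocultured cells, against 8.54, 8.53, 8.50, 8.74 and 8.76 in quiescent cells (0.76 ± 0.18, adjusted p = 0.00388), and was not called without coculture replicate 3. Sdhd, a membrane anchor of complex II, was higher by 0.59 ± 0.16, Ndufv3 by 0.86 ± 0.16 and the small complex III subunit gene Uqcr10 by 0.58 ± 0.20. Sdhd was not called without coculture replicate 2, and Uqcr10 was not called without either coculture array or without quiescent replicate 1 or 3.

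**Figure D2:**
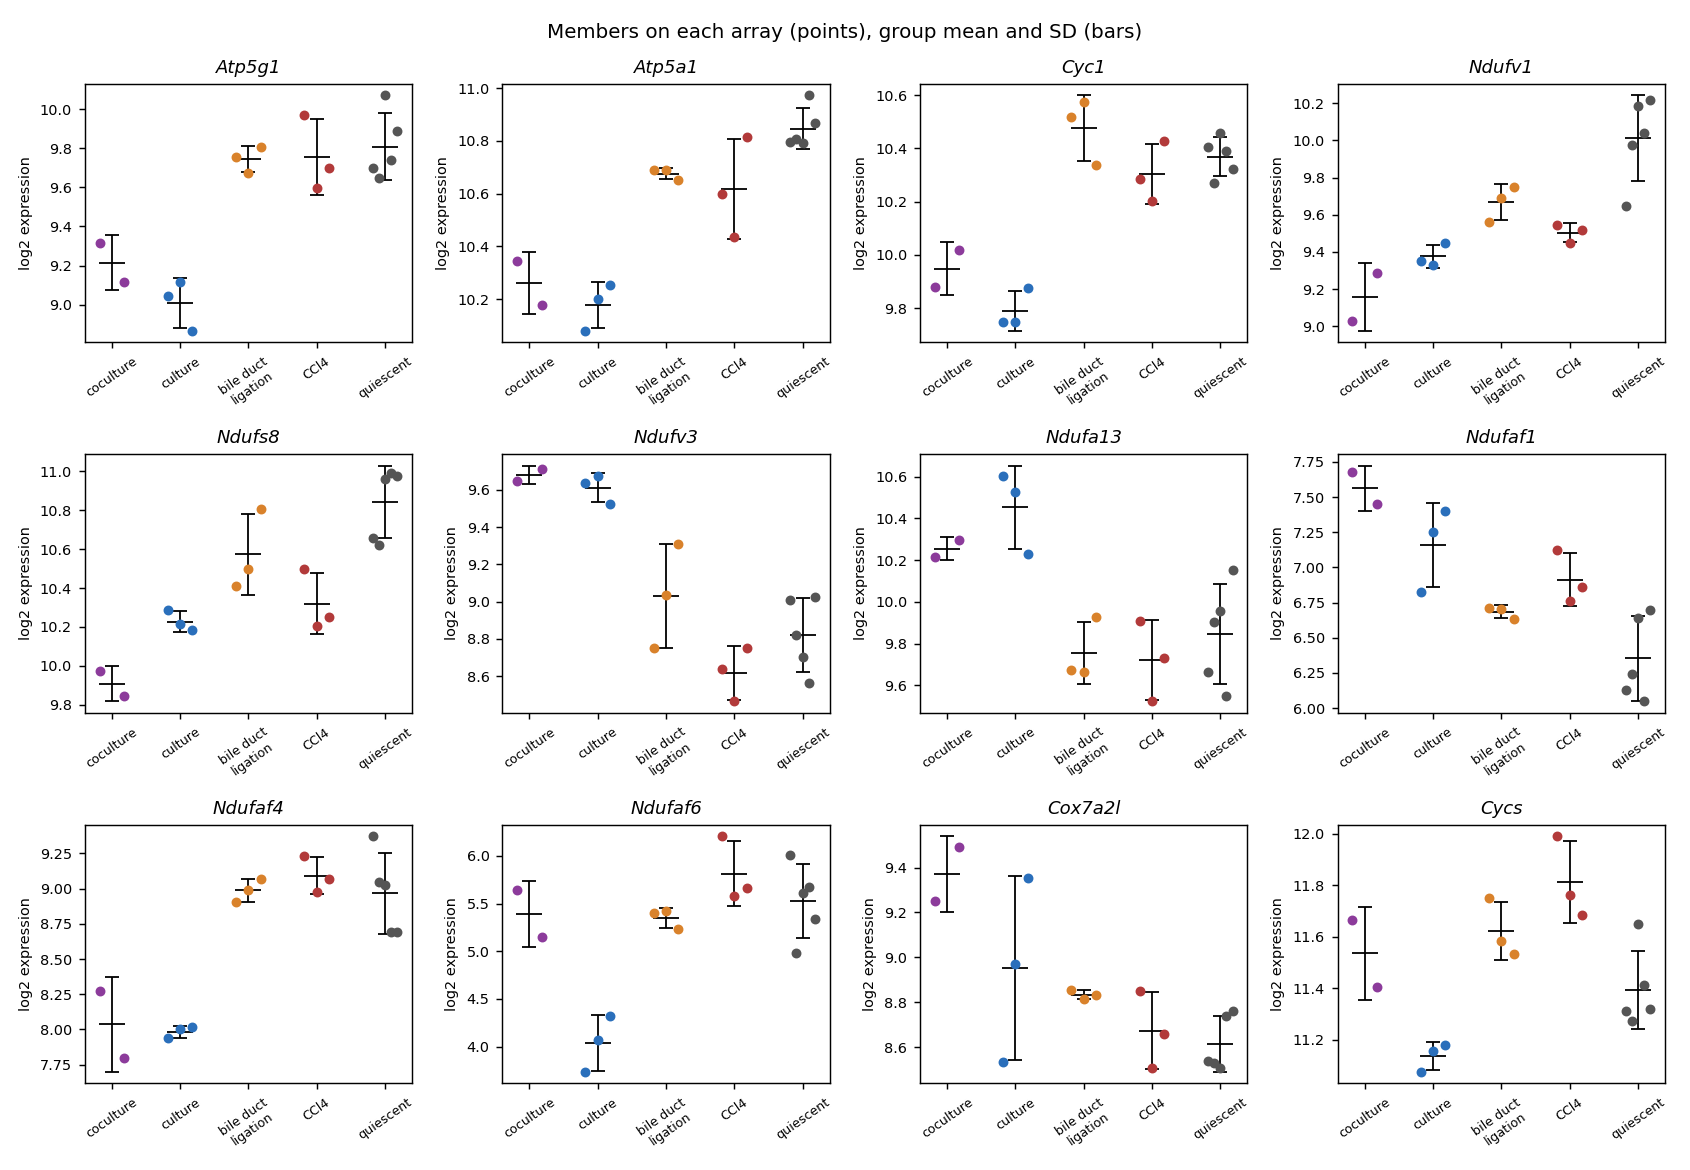
Log2 expression (y axis, own scale in each panel) of 12 named genes on each of the 16 arrays, by group (x axis). Points are arrays, and the horizontal and vertical bars are group means and SDs (n = 2 for coculture, 3 for culture, bile duct ligation and CCl4, 5 for quiescent). Atp5g1, Atp5a1, Cyc1 and Ndufaf4 are lower in coculture and culture than in the other groups, and Ndufv3 is higher there.

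Coculture against culture asks what the macrophages add. Only 4 of 81 genes were called (4.94%), all higher in coculture, beside 15.4% of all genes tested (8.37% higher, 7.03% lower). Arrays did not overlap for 27 of 81 genes, beside 46.2% of all genes. Ndufaf6 stood at 5.64 and 5.15 in cocultured cells, against 3.74, 4.07 and 4.32 in cultured cells, with no overlap (1.35 ± 0.30, limma, adjusted p = 0.00732). The accessory complex I subunit gene Ndufa8 stood at 9.67 and 9.52 in cocultured cells, against 9.09, 9.08 and 9.004 in cultured cells (0.53 ± 0.13, adjusted p = 0.0123). Cox5a, a nuclear subunit of complex IV, was higher by 0.49 ± 0.13 and Cycs by 0.40 ± 0.13 (adjusted p = 0.0475). All 4 calls were lost without coculture replicate 2 and when only these 2 groups were fitted, and Cycs was lost in 20 settings. Cox5a was also lost without coculture replicate 3 and with unique-class probe sets (not ending in _x_at, _s_at or _a_at, where available). The 95% interval of the difference lay within ±0.5 for 51 of 81 genes and within ±1 for 79. Macrophage markers moved in the same comparison: their summed level was 8.31 to 8.37 on the log2 scale in coculture and 6.30 to 6.53 in culture. Of the 12 markers, 2 averaged log2 5 or more in coculture and 0 in culture, and Adgre1, the F4/80 gene, was at background in both (1.55 and 1.54). Cd68, a lysosomal macrophage marker, was called higher in coculture (4.08 ± 0.63, limma, adjusted p = 0.000547). Krt19, a bile duct marker and the 1 tested of 4, was also called higher (3.27 ± 0.42, adjusted p = 0.000138). It averaged 5.60 in coculture, 2.33 in culture and 1.58 in quiescent cells, while Krt7, Epcam and Sox9 did not exceed a mean of 2.81 in any group. The part of these markers in the result was not tested.

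After bile duct ligation differences from quiescent cells were small. Of 81 genes 0 were called by limma, beside 16.9% of all genes tested (8.03% higher, 8.83% lower). An unadjusted p under 0.05 was found for 9 (6 higher, 3 lower), and the same count over all genes was not made. Arrays did not overlap for 13 of 81, beside 22.6% of all genes. The median difference was 0.04. The median absolute difference was 0.10, beside 0.27 over all genes and 0.21 over genes averaging log2 8 or more. The 95% interval of the difference lay within ±1 for all 81 genes and within ±0.5 for 67. Leaving out quiescent replicate 1 gave 2 calls, and leaving out quiescent replicate 3, culture replicate 1, culture replicate 3 or CCl4 replicate 2 gave 1. The smallest adjusted p was that of Atp5md, a small membrane subunit of the ATP synthase, with 10.53, 10.42 and 10.40 in bile duct ligation cells, against 10.08, 9.83, 9.79, 10.13 and 9.86 in quiescent cells. The arrays did not overlap, and the difference of 0.51 ± 0.18 had an adjusted p of 0.0688. Ndufv1 differed by -0.34 ± 0.12 (adjusted p = 0.0699), and Cyc1 (0.11 ± 0.09) and Atp5g1 (-0.06 ± 0.12) were not called.

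After CCl4 10 of 81 genes were called (12.3%), 2 higher and 8 lower, beside 22% of all genes tested, of which 9.51% were higher and 12.5% lower. Arrays did not overlap for 20 of 81, beside 25.5% of all genes. Cycs, the electron carrier that also triggers apoptosis when released, stood at 11.99, 11.76 and 11.68 in CCl4 cells, against 11.31, 11.27, 11.65, 11.41 and 11.32 in quiescent cells. The CCl4 arrays were above all quiescent arrays (0.42 ± 0.10, limma, adjusted p = 0.00931). However, the call was lost without CCl4 replicate 1, with the mean of all probe sets, with unique-class probe sets and with a replicate block. Ndufaf1 was higher by 0.56 ± 0.18 (adjusted p = 0.0403), a call lost in 14 alternative settings, among them without any 1 of the 3 CCl4 arrays and without quiescent replicate 1, 2 or 4.

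Of the 8 genes lower after CCl4 6 belong to complex I, whose 33 subunits (with Ndufa4, by its symbol) and 8 assembly factors make up much of the 81. Ndufb7, an accessory subunit on the intermembrane-space side, stood at 9.52, 9.31 and 9.50 in CCl4 cells, against 9.80, 9.94, 9.91, 9.89 and 10.17 in quiescent cells, without overlap (-0.50 ± 0.10, limma, adjusted p = 0.00223). Ndufs8 stood at 10.50, 10.21 and 10.25 in CCl4 cells, against 10.66, 10.62, 10.96, 10.99 and 10.98 in quiescent cells (-0.52 ± 0.12, adjusted p = 0.00654). Ndufv1 (-0.51 ± 0.12), Ndufa5 (-0.45 ± 0.13), Ndufa1 (-0.35 ± 0.11) and Ndufb10 (-0.34 ± 0.10) were the other complex I genes, with Atp5e, the epsilon subunit of F1 (-0.30 ± 0.10), and Sdhc, a complex II anchor (-0.35 ± 0.12), beside them. Ndufb10 lost its call without quiescent replicate 5 or any 1 of the CCl4 arrays. Sdhc is uncertain, since another of its probe sets went the opposite way and its call was lost in 18 settings. The count of 10 depended on single arrays. It was 4 without CCl4 replicate 1, 5 without CCl4 replicate 2, 5 without CCl4 replicate 3 and 6 without quiescent replicate 5. With each array centred on its median it was 5, 2 higher and 3 lower.

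Hepatocyte transcripts were present after both injuries. The summed level of 10 hepatocyte markers was 7.64 to 9.17 after bile duct ligation and 8.56 to 11.18 after CCl4 on the log2 scale, against 4.69 to 5.56 in quiescent cells. Alb, the albumin gene, stood at 8.999, 7.34 and 8.40 after bile duct ligation and at 7.94, 9.26 and 10.79 after CCl4, against 1.92, 1.84, 3.74, 2.50 and 3.75 in quiescent cells. By group mean 1 of 10 markers reached log2 5 after bile duct ligation, 3 after CCl4 and 0 in quiescent cells, while the hepatocyte factor gene Hnf4a was at background in each (1.92, 1.91 and 1.99). Macrophage markers summed to 6.92 to 8.68 after bile duct ligation and 7.43 to 8.50 after CCl4, against 6.75 to 8.04 in quiescent cells. The part of these cells in the differences above was not tested.

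Between the injuries 0 of 81 genes were called by limma in bile duct ligation against CCl4, beside 0.166% of all genes tested (0.0256% higher, 0.141% lower). Arrays did not overlap for 30 of 81, beside 25.3% of all genes. At an unadjusted p under 0.05 there were 14, all higher after bile duct ligation, and the same count over all genes was not made. The median difference was 0.12, beside 0.01 over all genes, and 66 of 81 were positive, beside 4003 of 7823. The array medians of the 81 genes overlapped, at 9.82 to 9.91 after bile duct ligation and 9.62 to 9.83 after CCl4. Ndufb10 had the smallest adjusted p (0.166), with 9.90, 9.94 and 10.08 after bile duct ligation, against 9.59, 9.62 and 9.53 after CCl4, which do not overlap (0.39 ± 0.11). Cox8a, a small complex IV subunit, differed by 0.47 ± 0.18 (adjusted p = 0.259). Of the hepatocyte markers 0 of 2 tested were called in this comparison, where 13 of 7823 genes were called in all. The median difference of these markers was -1.72, with Ttr averaging 4.39 after bile duct ligation and 6.76 after CCl4. The summed levels and the Alb arrays given above overlapped. The part of hepatocyte transcripts in these differences was not tested.

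**Figure D3:**
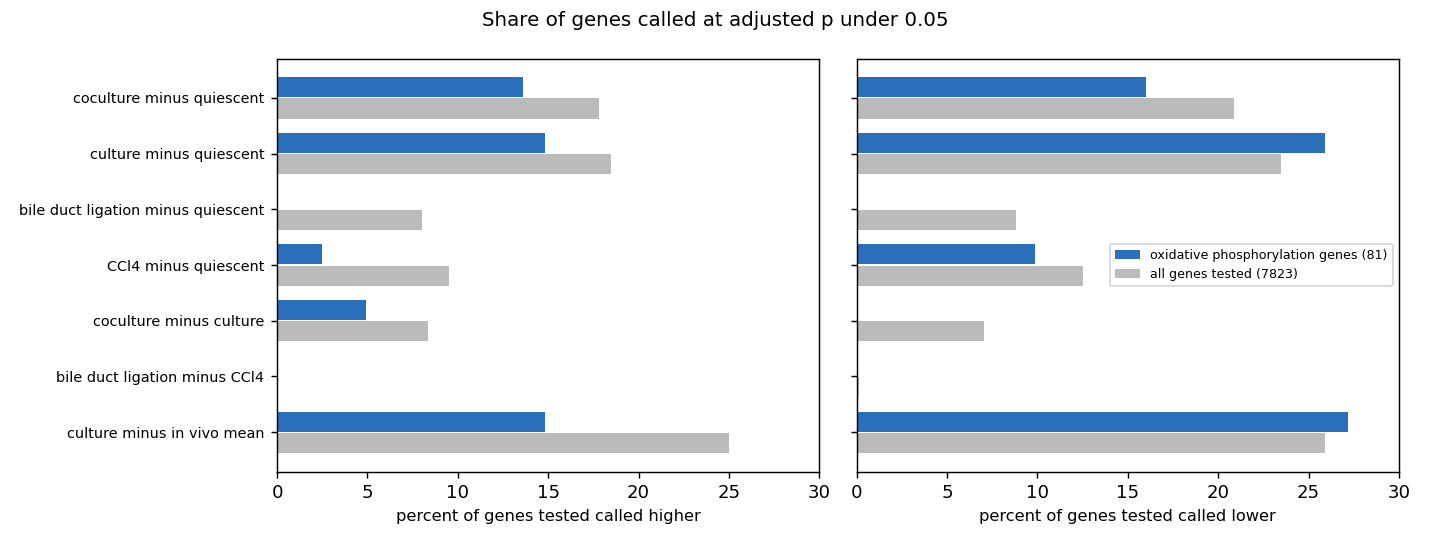
Percent of genes called higher (left) and lower (right) in each of the 7 comparisons, among the 81 oxidative phosphorylation genes (blue) and all 7823 genes tested (grey). In culture against quiescent 21 of 81 were lower, and after bile duct ligation 0 were called.

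Cells activated on plastic were also set against the mean of both in vivo groups, which asks whether culture resembles activation in the animal. Here 34 of 81 genes were called (42%), 12 higher and 22 lower in culture, beside 50.9% of all genes tested (25% higher, 25.9% lower). Arrays did not overlap for 33 of 81, beside 44.6% of all genes. Cycs stood at 11.08, 11.16 and 11.18 in cultured cells, against 11.75, 11.59 and 11.53 after bile duct ligation and 11.99, 11.76 and 11.68 after CCl4. The cultured arrays lay below all in vivo arrays (-0.58 ± 0.10, limma, adjusted p = 0.000222). Ndufaf6 (-1.54 ± 0.23), Ndufaf4 (-1.05 ± 0.15), Ndufaf5, which modifies a complex I core subunit (-0.87 ± 0.21), Atp5g1 (-0.74 ± 0.12) and Ndufab1 (-0.61 ± 0.09) were the largest decreases. Here all 3 subunit c genes were lower, with Atp5g3 at -0.21 ± 0.07, a call lost without culture replicate 1 or 3. Ndufv3 (0.79 ± 0.14), Ndufa13 (0.71 ± 0.14), Cox8a (0.65 ± 0.15), Ndufa1 (0.62 ± 0.10) and Ndufa4 (0.58 ± 0.14) were the largest increases. Hepatocyte markers summed to 4.67 to 5.29 in cultured cells, against 7.64 to 9.17 after bile duct ligation and 8.56 to 11.18 after CCl4. In culture 2 of 2 tested hepatocyte markers and 1 of 2 tested macrophage markers were called lower. Time on plastic also differed, at 5 days for cultured cells and 24 h for the in vivo groups. The part of these differences in the result was not tested.

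Complex II did not move as a unit. In culture against the in vivo mean Sdha, the flavoprotein that oxidises succinate, was higher (0.48 ± 0.10, limma, adjusted p = 0.00148, not called with the mean of its probe sets), as was Sdhc (0.35 ± 0.11, adjusted p = 0.0196), while the iron-sulfur subunit gene Sdhb was lower (-0.32 ± 0.11, adjusted p = 0.0224). Sdhd differed by 0.27 ± 0.13 and was not called. Sdhb lost its call without culture replicate 2 or 3, and Sdhc without culture replicate 1 or 3.

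Several complex IV subunits exist as a widely expressed and a restricted isoform. The widely expressed Cox4i1 and Cox7a2 were called in 0 of 7 comparisons, with differences from quiescent cells of -0.12 and -0.06 in culture. Cox6a1 was higher in culture than in quiescent cells (0.37 ± 0.10, limma, adjusted p = 0.00772), though not without culture replicate 2, and Cox6b1 by 0.26 ± 0.08 (adjusted p = 0.0141), though not without culture replicate 3. Cox8a was higher by 0.49 ± 0.16 (adjusted p = 0.0228), though not without culture replicate 1 or 2. The muscle isoforms Cox6a2, Cox7a1 and Cox8b and the lung isoform Cox4i2 stayed between 1.02 and 2.86 on all arrays, near background. Without a filter limma called Cox8b in culture (0.97 ± 0.25, adjusted p = 0.0100) and Cox7a1 in coculture (0.79 ± 0.22, adjusted p = 0.0161) against quiescent cells, and Cox8b in culture against the in vivo mean (0.80 ± 0.24, adjusted p = 0.0207), all at these low signals.

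Ndufa4l2, the hypoxia-inducible relative of Ndufa4, stood at 1.82 and 7.32 in cocultured cells, against 1.91, 1.31 and 1.27 in cultured cells, and did not exceed 1.84 in any of the other 11 arrays. The high value came from coculture replicate 3 alone. With 1 array above the filter it was not tested in the fit used throughout, and limma without a filter gave 3.17 ± 0.81 against quiescent cells (adjusted p = 0.0104), a difference that rests on that array. Cox6b2, the testis isoform, stood at 2.77 and 4.13 in cocultured cells, against at most 2.79 in cultured cells and 1.90 in quiescent cells. Without a filter limma gave Cox6b2 1.68 ± 0.29 in coculture against quiescent cells (adjusted p = 0.000525). Ndufa4l2 was also called there in coculture against culture (3.08 ± 0.89, adjusted p = 0.0434) and Ndufb4 in culture against the in vivo mean (-0.27 ± 0.09, adjusted p = 0.0343). The remaining genes below the filter averaged 0.89 (Cox7b2), 2.16 (Cox7c), 1.63 (Cox8c), 4.38 (Ndufb1) and 1.16 (Ndufb4) over the 16 arrays. Cox7c, Ndufb1 and Ndufb4 are known as widely expressed subunit genes, and nothing is said of their expression here beyond the signal of these probe sets.

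**Figure D4:**
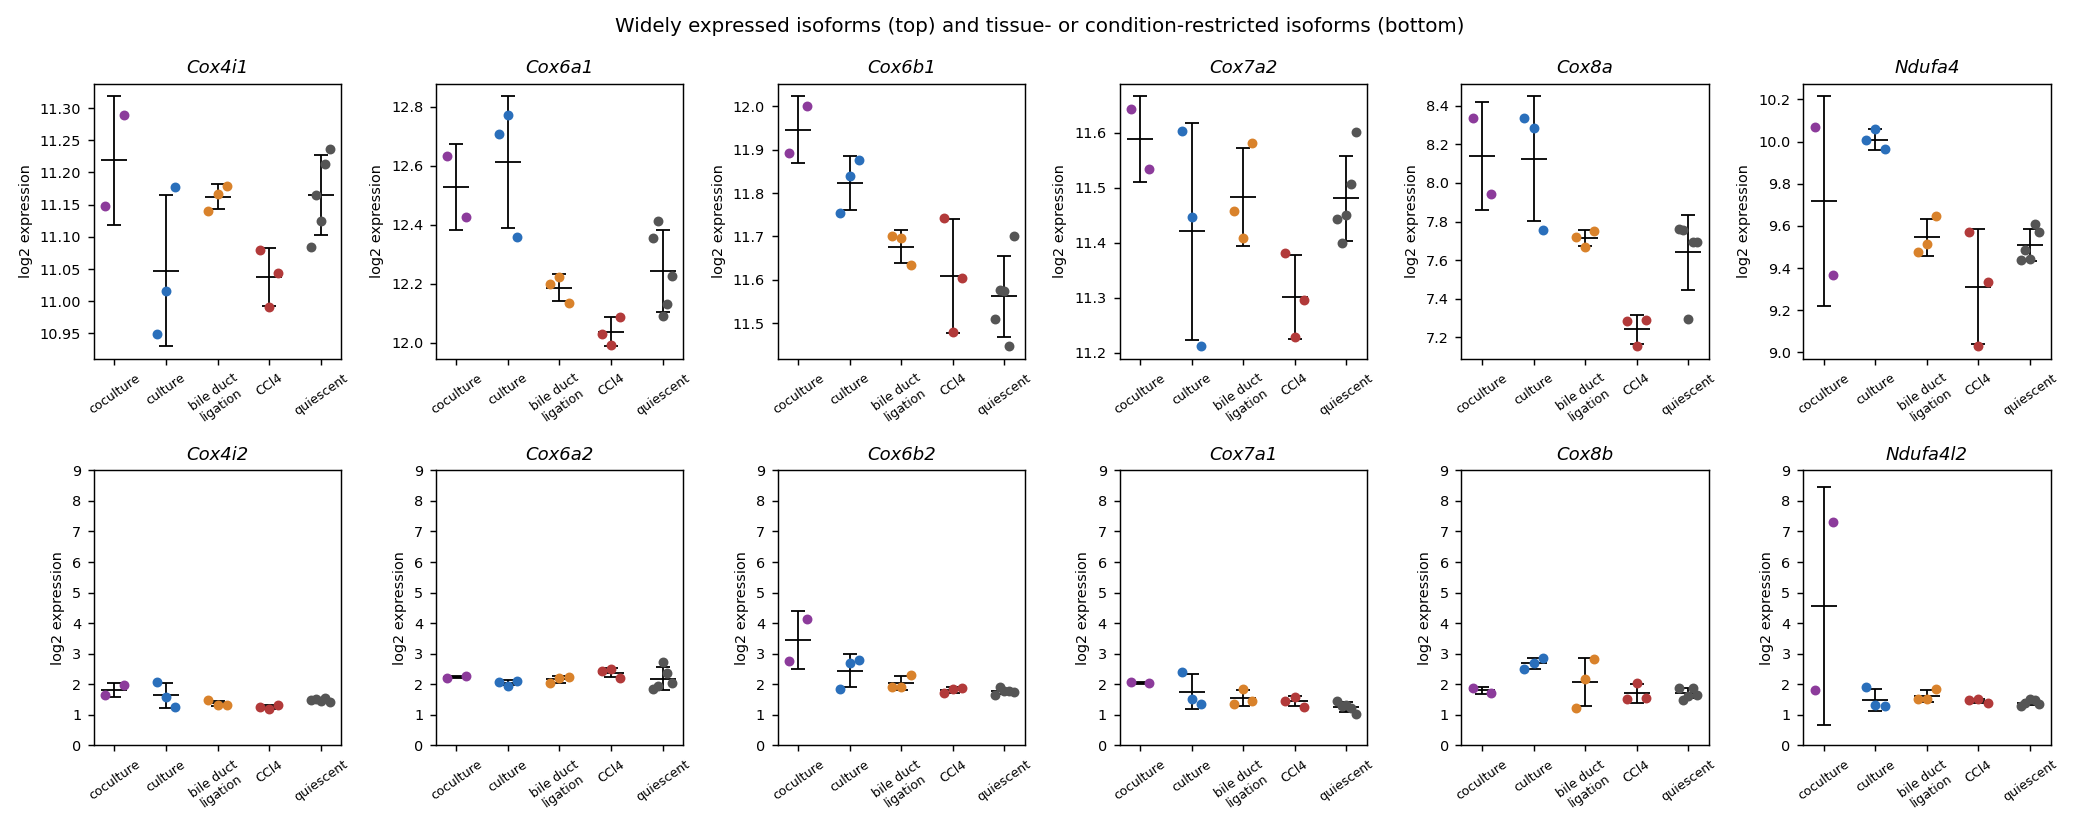
Log2 expression (y axis) on each array of 6 widely expressed isoforms (top row, own scale in each panel) and 6 tissue- or condition-restricted isoforms (bottom row, common scale). Points are arrays and bars are group means with SDs. The restricted isoforms lie near background, except for Ndufa4l2 at 7.32 on 1 coculture array.

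Other mitochondrial genes were counted beside these. Of 75 tested genes of the mitochondrial ribosome, which translates the core subunits encoded in mitochondrial DNA, 1 was higher and 30 lower in culture against quiescent cells, with a median of -0.31, beside 18.5% higher and 23.5% lower of all genes. Mrpl12 stood at 7.76, 7.48 and 7.37 in cultured cells, against 9.17, 8.62, 8.89, 9.27 and 9.001 in quiescent cells, without overlap (-1.45 ± 0.15, limma, adjusted p = 6.02e-06). Against the in vivo mean 1 was higher and 47 lower, beside 25% and 25.9% of all genes. Against quiescent cells 5 were higher and 15 lower in coculture (all genes 17.8% and 20.9%), 5 higher and 0 lower after bile duct ligation (8.03% and 8.83%), and 6 higher and 1 lower after CCl4 (9.51% and 12.5%).

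The counts that follow for culture stand beside the same 18.5% higher and 23.5% lower of all genes. Carriers and import genes counted 1 higher and 12 lower of 28. Among them Slc25a5, an ADP/ATP carrier that feeds the ATP synthase, fell by 0.89 ± 0.09 and the chaperonin gene Hspd1 by 0.94 ± 0.09. Assembly factors outside the symbol rule counted 8 higher and 5 lower of 36. Lrpprc, which stabilises mitochondrial messenger RNAs, fell by 1.36 ± 0.20 in culture and by 1.43 ± 0.23 in coculture, and Higd2a, a supercomplex assembly factor, was higher in coculture by 1.49 ± 0.21. Of 11 regulators 3 were lower and 1 was higher in culture. Pprc1, a coactivator related to PGC-1, fell by 1.32 ± 0.19 and Myc, a growth regulator, by 2.38 ± 0.45.

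**Figure D5:**
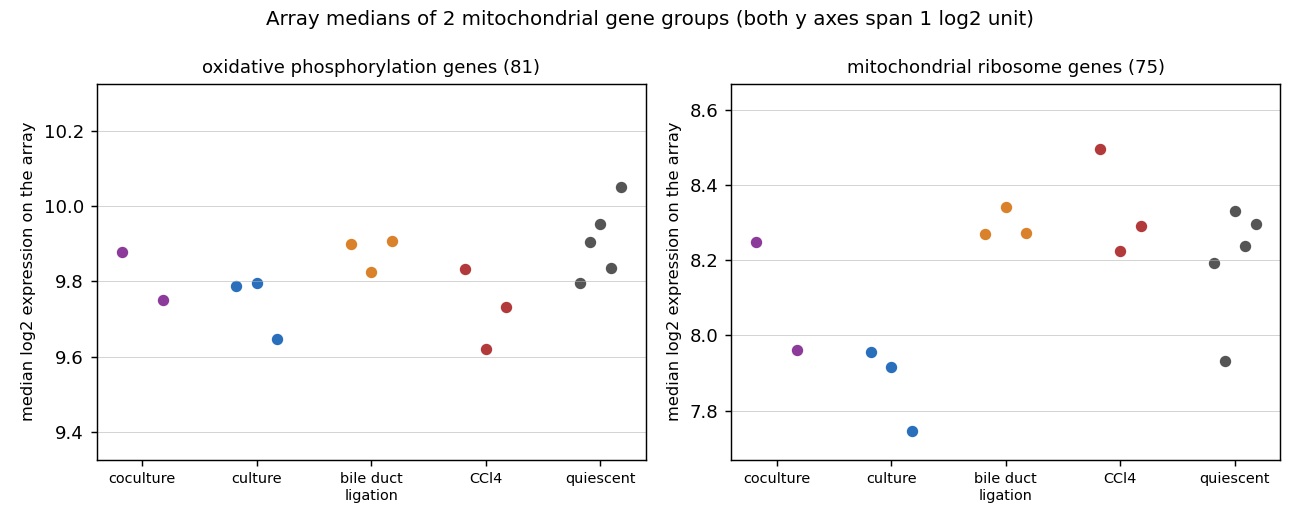
Median log2 expression on each array (y axis) of the 81 oxidative phosphorylation genes (left) and of 75 mitochondrial ribosome genes (right), by group (x axis). Each point is 1 array, and both axes span 1 log2 unit. The oxidative phosphorylation medians lie between 9.62 and 10.05.

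Tricarboxylic acid cycle genes counted 3 higher and 5 lower of 20 in culture and 3 higher and 7 lower in coculture, and fatty acid oxidation genes 3 higher and 0 lower of 19 in culture, beside 18.5% higher and 23.5% lower of all genes in culture and 17.8% and 20.9% in coculture. In coculture against culture, where 4 of 81 oxidative phosphorylation genes were called, 7 of 14 glycolysis genes and 8 of 16 hypoxia target genes were higher and 0 of either were lower, beside 8.37% higher and 7.03% lower of all genes. These lists share several genes. Pkm, the last enzyme of glycolysis, stood at 10.97 and 11.02 in cocultured cells, against 9.79, 9.70 and 8.91 in cultured cells (1.53 ± 0.21, limma, adjusted p = 0.000273). Quiescent cells had 11.06, 10.97, 10.59, 11.15 and 11.05. Both cocultured values thus lay within the quiescent range, and Pkm was lower in culture than in quiescent cells (-1.50 ± 0.17). Against quiescent cells Bnip3, a hypoxia-inducible mitophagy receptor, rose by 3.81 ± 0.24 in coculture and by 2.70 ± 0.21 in culture.

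Where a called gene had further probe sets at log2 5 or more, these went the same way in 24 of 24 cases in culture, 20 of 20 in coculture and 10 of 11 after CCl4. Some calls still depended on the probe set, and 51 of the 92 genes were kept on one ending in _x_at, _s_at or _a_at. With the mean of all probe sets, lost calls included Atp5a1 and Cox8a in culture. They also included Atp5g1, Cox8a and Sdhd in coculture, and Cycs and Sdhc after CCl4. With unique-class probe sets they included Cox6b1 and Cox8a in culture and Cycs after CCl4. Over all comparisons with quiescent cells 39 of 81 genes were called in none, 25 were lower in at least 1 and never higher, 16 were higher and never lower, and 1 was both. These comparisons share the 5 quiescent arrays, and the same counts over all genes were not made. With 0 genes called after bile duct ligation, none could be called in all 4.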

How the data were processed

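Each of 16 arrays has deposited log2 expression values per probe set, which the submitters' processing notes credit to GCRMA. No label or header gives the version or settings used. GCRMA models background from probe sequence and normalises between arrays by quantiles, so unexpressed probe sets pile up near a low value and global shifts are removed. All 45101 probe sets had a value on every array. The platform annotation gave 1 symbol to 34958 probe sets and several to 932, and those with several or none were left out. All 92 symbols matched the reference gene table.

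The values of all 5 groups went into a single limma fit (version 3.58.1, R 4.3.3; lmFit, eBayes with trend), from which 7 two-sided contrasts were taken. Intervals are the fit's 95% confidence intervals. Precision is limited by how few arrays each group has. The fit was tested on simulated data. Named genes were the 5 largest called increases and decreases per comparison without overlap between arrays, a fixed set (isoform pairs, Cycs, Cyc1 and the Sdh genes) and up to 3 called genes per other list. Further called genes of each complex, and Atp5md, were named after their values were seen. The members and lists were chosen with earlier results of these data known. Replicate numbers were checked for pairing. Correlations of deviations ran from -0.26 to 0.54 over 26 same-numbered pairs and from -0.54 to 0.45 over 74 differently numbered pairs. With so few arrays per group this could not decide whether the numbers pair samples. Alternatives covered scaling, filters, probe sets, array weights, groups fitted, a replicate block and single arrays left out.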

Additional observations from a re-analysis of the deposited data

Results flagged for a closer look

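Quiescent cells were the 1 group with enough arrays to look for an array that stands apart, and 33 named genes were examined. Chance flags about 1 in 20 groups, and 3 were found. Atp5g3 stood at 11.3046 in quiescent replicate 4, below the other 4 arrays at 11.48 to 11.52. Cox8a stood at 7.2952 in quiescent replicate 3, below the others at 7.70 to 7.76. Sdhc stood at 9.2894 in quiescent replicate 5, above the others at 8.94 to 9.02. The cause was not tested.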

How the results depend on the processing

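Counts of called genes over the 81 oxidative phosphorylation genes moved by over 1.5 times in 4 comparisons under the settings other than single arrays left out. For bile duct ligation (0 calls) the count was 1 with arrays centred, with the mean of all probe sets, with only the groups compared, with the replicate block and with quiescent array 4 and culture array 3 left out together (added after seeing the data), 2 with unique-class probe sets and 5 with array weights. For CCl4 (10) it was 5 with arrays centred, 6 with no filter, 17 with array weights, 4 with only the groups compared and 2 with the replicate block. For coculture against culture (4) it was 2 with unique-class probe sets and 0 with only the groups compared. For bile duct ligation against CCl4 (0) it was 1 with array weights. With single arrays left out the counts ran from 25 to 36 (culture), 14 to 27 (coculture), 0 to 2 (bile duct ligation), 4 to 12 (CCl4), 0 to 4 (coculture against culture), 0 to 0 (bile duct ligation against CCl4) and 28 to 36 (culture against the in vivo mean). Medians moved by less than 1 SD of the array medians (0.0902) in 189 of 189 recomputations, and 0 called genes reversed. This bound is larger than every median but that of bile duct ligation against CCl4 (0.12). A median could therefore change sign within it, and the count does not show that signs held. Of the named genes' recomputed values 131 lost a call and 29 gained one. The cause was not tested. Deviations from group means had a median correlation of -0.01 between same-numbered arrays and 0.02 between differently numbered arrays. In groups this small such deviations are tied to each other, so the check cannot decide whether same-numbered arrays share animals or a preparation. With the replicate block the counts were 27 (culture), 21 (coculture), 3 (coculture against culture), 0 (bile duct ligation against CCl4) and 33 (culture against the in vivo mean). Groups of 2 and 3 arrays, and signals near background for the 11 genes below the filter, set the limits of what could be seen.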
